A study of Mus musculus with 36 samples.

Results

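A set of 10 genes that mark liver cells other than hepatocytes was followed through the liver methylomes of 24 mice: Clec4f, Cd5l, Marco, Timd4 and Cd68 for Kupffer cells, Stab1, Stab2 and Lyve1 for sinusoidal endothelial cells, and Ptprc and Cd3e for leukocytes. They are 10 of 21281 autosomal protein-coding genes. The members were a given list, and every CpG from 5000 nt upstream of a gene's 5′ end to 1000 nt past its 3′ end was taken, 4247 of 18887127 autosomal CpGs. In windows of 500 nt, 638 windows of these regions could be tested, each holding 3 CpGs or more that together had 30 reads or more per animal, of 2580465 such windows in the genome. Methylation is given as the percentage of reads at a CpG, window, promoter or region that were methylated.

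Bisulfite sequencing, which reads methylated cytosines as C and unmethylated ones as T, was made on DNA of frozen, pulverised whole liver of single animals. The parents were inbred C57BL/6N (B6) and C3H/HeN (C3) mice, with 3 sires and 3 dams of each strain. Their F1 offspring were 3 males and 3 females of B6C3F1 (B6 dam, C3 sire) and 3 males and 3 females of C3B6F1 (C3 dam, B6 sire), and the labels name no engineered allele and no treatment. The parents were mated at 10 weeks of age, weaning was at week 16, and all animals were sacrificed at 20 weeks of age. The dams had borne and nursed pups and the F1 females were virgin, so sires and dams differ in sex and in breeding history. Autosomal CpGs were covered by 19.4 to 32.8 reads per animal, and their overall methylation lay between 75.0% and 77.5%, with a mean of 76.0% in B6 and 77.0% in C3 parents.

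Hepatocytes make up most of the mass of the liver. Kupffer cells are its resident macrophages, which clear particles and bacteria from portal blood, sinusoidal endothelial cells line the capillaries and take up waste molecules through scavenger receptors, and leukocytes circulate through or reside in the tissue. Promoters with many CpGs are mostly unmethylated in all cells, whereas promoters with few CpGs tend to be methylated in cells where the gene is silent and to lose methylation where it is active. In DNA of whole liver a level between the extremes can come from a minority of cells that lack methylation or from partial methylation in most cells, and these cannot be told apart. Likewise fewer cells of a type and higher methylation within those cells cannot be told apart.

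Stretches of 300 bases show the positions that the values rest on, read from the mm9 genome on the strand of the gene, with each CpG in capitals. The first set holds the 300 bases just upstream of the 5′ end of Clec4f (chr6:83606182-83606481, minus strand), of Cd68 (chr11:69479656-69479955, minus strand) and of the hepatocyte gene Apoa1 (chr9:46036363-46036662, plus strand), since they show a methylated, a mixed and an unmethylated start.
Clec4f upstream: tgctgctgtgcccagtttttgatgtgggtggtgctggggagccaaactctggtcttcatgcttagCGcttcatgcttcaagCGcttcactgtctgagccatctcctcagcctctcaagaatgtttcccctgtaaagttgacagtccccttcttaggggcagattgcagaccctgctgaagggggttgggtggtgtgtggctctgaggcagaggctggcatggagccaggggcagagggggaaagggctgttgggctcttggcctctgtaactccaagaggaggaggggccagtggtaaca
Cd68 upstream: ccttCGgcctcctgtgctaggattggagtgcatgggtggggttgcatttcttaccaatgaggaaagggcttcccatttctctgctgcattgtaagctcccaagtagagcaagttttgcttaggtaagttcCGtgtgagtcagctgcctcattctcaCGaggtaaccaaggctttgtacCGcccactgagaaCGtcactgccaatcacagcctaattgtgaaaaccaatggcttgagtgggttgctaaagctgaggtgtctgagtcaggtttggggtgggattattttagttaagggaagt
Apoa1 upstream: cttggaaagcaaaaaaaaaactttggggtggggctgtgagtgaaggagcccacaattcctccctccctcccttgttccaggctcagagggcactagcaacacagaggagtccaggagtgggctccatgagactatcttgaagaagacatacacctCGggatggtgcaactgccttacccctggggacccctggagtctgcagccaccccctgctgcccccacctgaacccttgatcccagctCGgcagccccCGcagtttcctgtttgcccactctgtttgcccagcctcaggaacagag
Both CpGs of the Clec4f stretch were methylated in 94.5% and 94.6% of reads (mean of 24 animals). The 3 CpGs upstream of Apoa1, which encodes the main protein of high density lipoprotein, stood at 13.8%, 5.54% and 11.2%. Upstream of Cd68 the 5 CpGs ranged from 2.91% to 81.9%. The CpG at base 157 had 2.91%, and the next one, at base 179, had 81.9%.

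The second set holds stretches from windows with the largest called difference in percentage points of the strain, the sires against dams and the dams against F1 females comparisons, in that order: an intron of Stab2 near its 3′ end (chr10:86308001-86308300), a stretch of Lyve1 in a window that overlaps an exon (chr7:117997686-117997985) and another intron of Stab2 (chr10:86348653-86348952), all on the minus strand.
Stab2 3′ intron: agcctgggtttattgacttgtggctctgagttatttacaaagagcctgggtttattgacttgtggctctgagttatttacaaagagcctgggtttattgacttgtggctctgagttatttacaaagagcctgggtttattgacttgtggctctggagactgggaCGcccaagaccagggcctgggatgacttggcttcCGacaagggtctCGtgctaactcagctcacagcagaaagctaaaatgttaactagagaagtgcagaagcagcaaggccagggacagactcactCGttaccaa
Lyve1 window: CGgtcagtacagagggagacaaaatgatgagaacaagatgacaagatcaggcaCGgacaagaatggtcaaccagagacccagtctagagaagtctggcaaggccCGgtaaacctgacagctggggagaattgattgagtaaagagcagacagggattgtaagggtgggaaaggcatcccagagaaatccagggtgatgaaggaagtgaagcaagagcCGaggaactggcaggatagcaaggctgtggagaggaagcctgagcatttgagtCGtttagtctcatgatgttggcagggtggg
Stab2 middle intron: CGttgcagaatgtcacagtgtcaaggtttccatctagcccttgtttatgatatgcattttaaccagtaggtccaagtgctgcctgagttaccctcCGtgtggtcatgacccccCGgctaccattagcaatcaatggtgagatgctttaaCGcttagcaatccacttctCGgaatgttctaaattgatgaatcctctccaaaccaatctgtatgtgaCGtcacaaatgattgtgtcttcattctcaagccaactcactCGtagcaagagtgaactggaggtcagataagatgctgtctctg
In the Stab2 3′ intron, the first CpG was low in both strains (18.0% in B6, 13.8% in C3), while the last one, at base 292, had 21.7% in B6 and 87.4% in C3. The Stab2 stretch opens with tandem copies of a single short unit that holds no CpG, and whether reads were placed differently there in the strains was not tested. In the Lyve1 window all 5 CpGs were lower in dams than in sires, from 69.5% against 78.3% at base 1 to 26.4% against 56.4% at base 271. In the Stab2 middle intron, the CpG at base 150 stood at 51.7% in dams and 31.6% in F1 females.

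The promoters of the marker genes were methylated in whole liver. From 1000 nt upstream to 500 nt downstream of the 5′ end, the 10 promoters ranged from 65.9% to 86.2% with a median of 78.8%, and none lay below 50%. The 16 promoters of a list of hepatocyte genes had a median of 25.9%, and 14 of 16 lay below 50%. All 10 marker promoters had fewer than 30 CpGs (CpG-poor), and among the hepatocyte promoters the 13 that were CpG-poor had a median of 29.0%. The difference between the medians was 52.9 percentage points, and within single animals it ranged from 44.8 to 61.1 points (SD 4.44, n = 24). Across the 7428 CpG-poor promoters of the genome the median was 75.6%, with quartiles of 61.2% and 84.4%. Timd4 and Cd3e lay above the upper quartile, and the other 8 marker promoters lay between the quartiles.

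**Figure D1:**
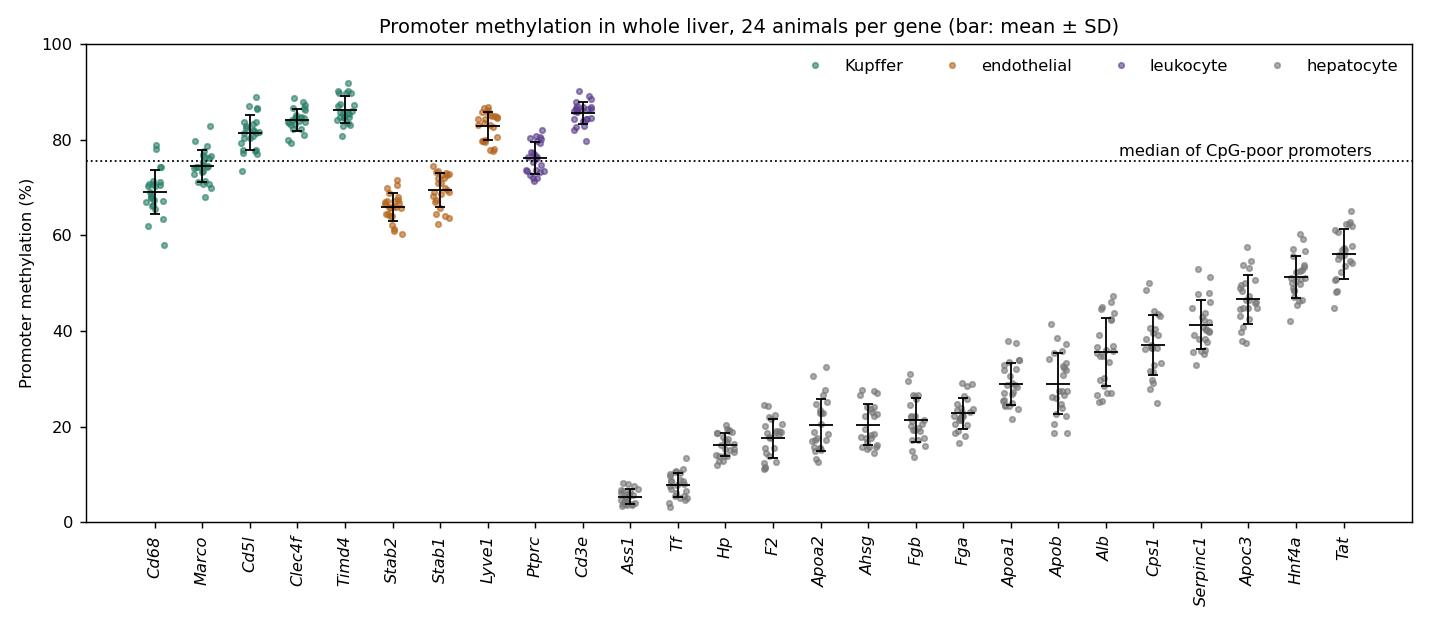
Promoter methylation (%) of each marker gene and each hepatocyte gene, with a point for every one of 24 animals and a bar for the mean ± SD. The marker promoters lie between 65.9% and 86.2%, the hepatocyte promoters between 5.4% (Ass1) and 56.1% (Tat), and the dotted line is the median of CpG-poor promoters (75.6%).

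Among the Kupffer genes, Clec4f (ENSMUSG00000014542.2, chr6:83594536-83606181, minus strand), a lectin receptor of the macrophage surface, had promoter methylation of 84.2% ± 2.32 (SD, n = 24), with a lowest, median and highest animal of 79.3%, 84.2% and 88.6%. Cd5l (ENSMUSG00000015854.6, chr3:87161803-87174996, plus strand) encodes a protein secreted by macrophages and stood at 81.5% ± 3.65 (73.5%, 81.5% and 89.0%). Timd4 (ENSMUSG00000055546.6, chr11:46624302-46657834, plus strand), a receptor for phosphatidylserine on dying cells, was the highest of the 10 at 86.2% ± 2.82 (80.8%, 85.5% and 91.9%). These promoters exceeded 66.0% to 80.7% of CpG-poor promoters. Marco (ENSMUSG00000026390.1, chr1:122371115-122401661, minus strand), a scavenger receptor for bacteria, had 74.5% ± 3.38 (67.9%, 74.3% and 82.8%). Cd68 (ENSMUSG00000018774.7, chr11:69477715-69479655, minus strand), a lysosomal membrane glycoprotein of macrophages, had 69.1% ± 4.66 (58.1%, 68.8% and 78.9%), the widest spread among the 10.

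The endothelial genes spanned a similar range. Stab2 (ENSMUSG00000035459.9, chr10:86303943-86470770, minus strand), the hyaluronan scavenger receptor of sinusoidal endothelium, had the lowest promoter of the set at 65.9% ± 2.90 (60.3%, 66.0% and 71.6%). Its relative Stab1 (ENSMUSG00000042286.7, chr14:31952199-31981827, minus strand) stood at 69.5% ± 3.50 (62.4%, 69.7% and 74.5%). Lyve1 (ENSMUSG00000030787.3, chr7:117994121-118006467, minus strand), a hyaluronan receptor of lymphatic and sinusoidal endothelium, stood at 82.9% ± 2.96 (77.7%, 83.9% and 86.9%). The Lyve1 animals did not overlap those of Stab1 or Stab2. Of the leukocyte genes, Ptprc (ENSMUSG00000026395.8, chr1:139959438-140071882, minus strand), which encodes the phosphatase CD45, had 76.2% ± 3.27 (71.3%, 76.2% and 82.0%). Cd3e (ENSMUSG00000032093.6, chr9:44806826-44817673, minus strand), a subunit of the T cell receptor complex, had 85.6% ± 2.35 (79.7%, 86.1% and 90.2%).

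In ascending order the promoters were Stab2, Cd68, Stab1, Marco, Ptprc, Cd5l, Lyve1, Clec4f, Cd3e and Timd4. Only the steps from Stab1 to Marco and from Ptprc to Cd5l exceeded the SD of both neighbors, and the other neighbors differed by less than the SD of at least 1 of the pair. Part of the spread was counting error: it alone gave an SD of 2.13 points for Clec4f, where the SD within groups was 2.26, and of 2.35 points for Cd68, where that within groups was 3.96.

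The other genes of the marker lists spanned a wider range. Of the Kupffer list, 5 genes that are not members had a median promoter level of 72.7%, from 56.7% (C1qc, a subunit of complement component C1q) to 88.7% (Csf1r, the receptor of the main macrophage growth factor). The 8 further leukocyte genes lay between 79.7% (Cd3g, another subunit of the T cell receptor complex) and 87.6% (Itgam, an integrin of myeloid cells). The endothelial list was the mixed one: 2 of its 11 genes lay below 50%, the lowest of them Kdr, the receptor for vascular endothelial growth factor, at 3.3%, and the highest was Lyve1. Of the hepatocyte list, the lowest was Ass1, an enzyme of the urea cycle, at 5.4%. The highest was Tat, which breaks down tyrosine, at 56.1%, and nearest the median were Fga, a chain of fibrinogen, at 22.8% and Apoa1 at 29.0%. Genes of other organs (8 genes) had a median of 72.6%, stellate cell genes of 30.2% (6 genes) and bile duct genes of 58.6% (5 genes). Only 2 of the stellate and 3 of the bile duct promoters were CpG-poor, and these had medians of 50.4% and 70.4%.

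Away from the promoters the marker genes were methylated along most of their length. The median window of the 638 stood at 83.5%, against 84.9% over all windows and 56.4% over the 724 windows of the hepatocyte genes. Windows below 50% were 34 of 638 (5.33%), against 7.31% of all windows and 327 of 724 (45.2%) of the hepatocyte windows. Of these 34 windows, 16 overlapped an exon, 16 lay in introns and 2 between genes. None lay within 1000 nt of the 5′ end of a protein-coding gene. These levels are means of 24 animals. The window that spans the Cd68 start, described below, was not among the 34 but lay below 50% in every B6 animal.

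**Figure D2:**
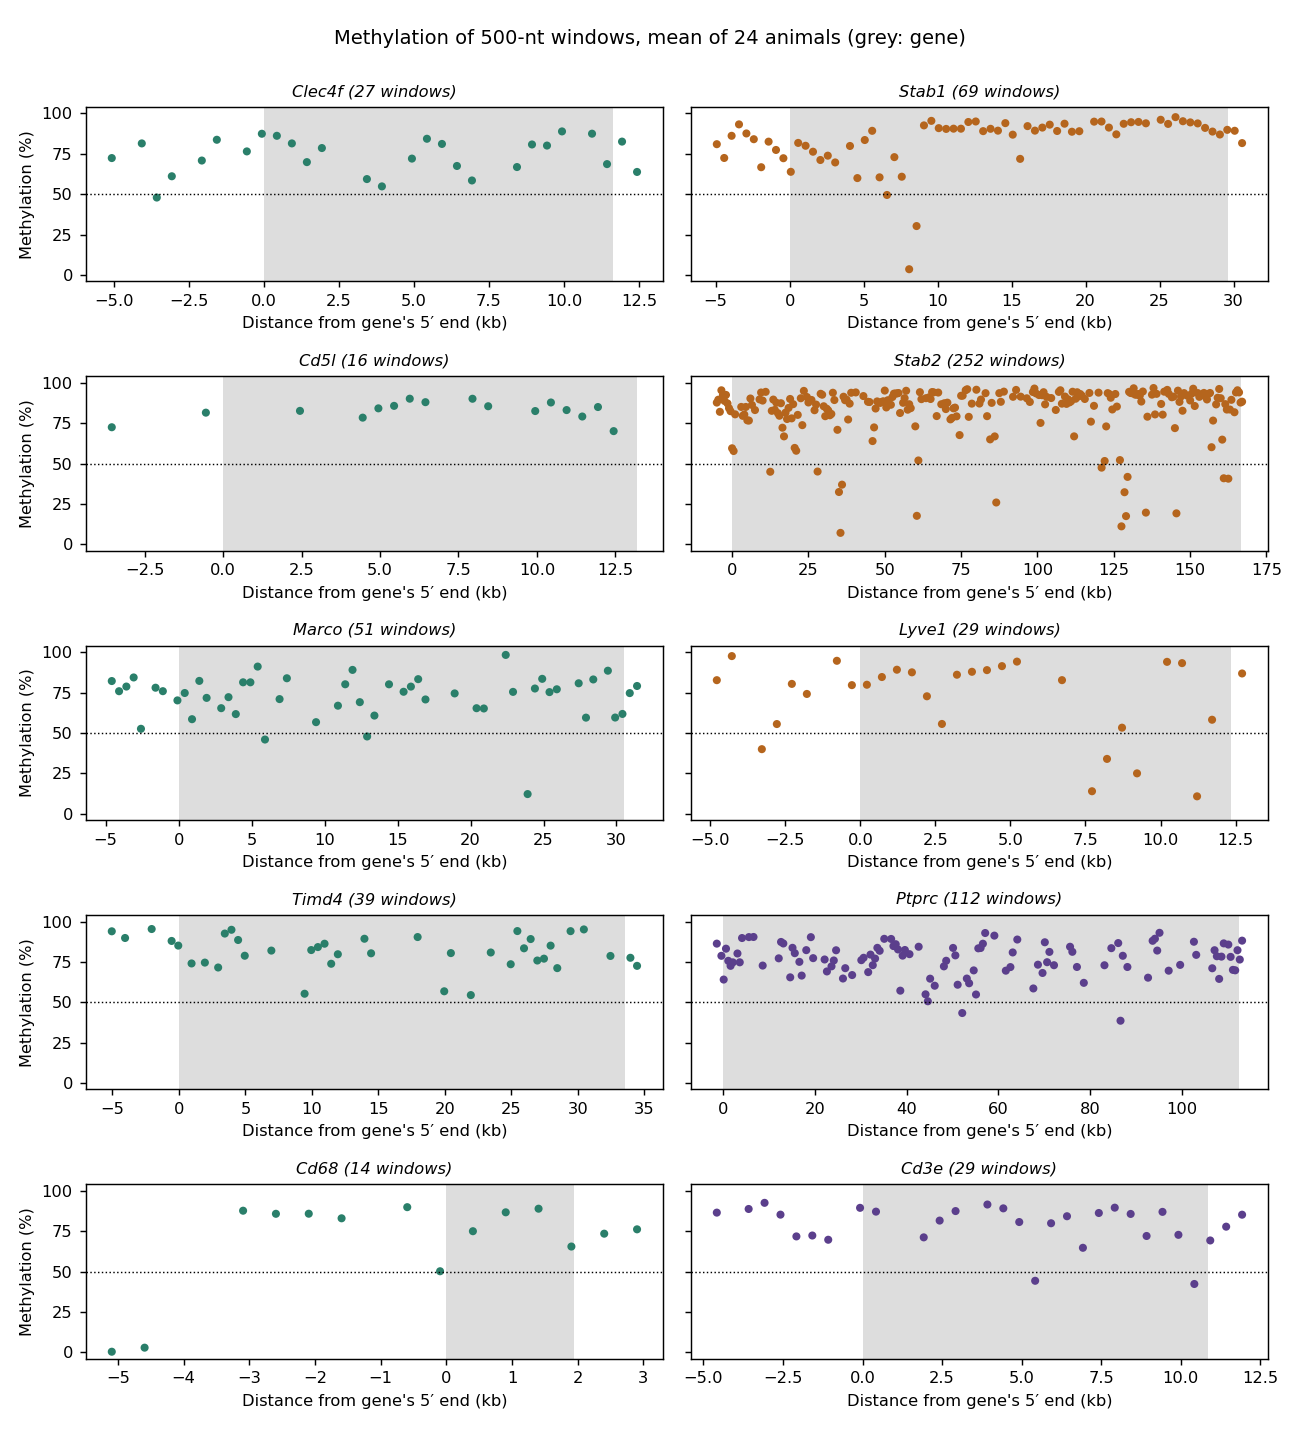
Mean methylation (%) of each tested 500-nt window of the 10 genes against its distance from the gene's 5′ end, with Kupffer genes in green, endothelial genes in brown and leukocyte genes in purple. Most windows lie above 80%, and the 34 windows below 50% lie inside or upstream of the genes at 1069 nt or more from any protein-coding start.

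By count, most of the low windows lay in the endothelial genes, which also held the most windows tested. Stab2 had 16 of its 252 windows below 50%, the lowest of them an intronic window of 13 CpGs 35520 nt from the 5′ end (chr10:86435001-86435500) at 7.05% ± 2.00 (lowest, median and highest animal 2.61%, 7.06% and 10.8%). Stab1 had 3 of 69, with its lowest at 3.51% ± 1.68 (0.312%, 3.59% and 7.35%) over 14 CpGs at an exon (chr14:31973501-31974000). Lyve1 had 5 of 29, the lowest at an exon near its 3′ end (chr7:117995001-117995500) at 10.7% ± 4.44 (5.62%, 9.69% and 21.6%). These are 6.35% of the Stab2, 4.35% of the Stab1 and 17.2% of the Lyve1 windows. In the lowest window of each gene, unmethylated reads outnumbered methylated ones in every animal. With windows shifted by 250 nt the lowest levels were 2.37% in Stab2, 11.3% in Stab1 and 19.1% in Lyve1.

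Among the Kupffer genes, Marco had 3 of its 51 windows below 50%, the lowest in an intron (chr1:122377501-122378000) at 12.1% ± 3.37 (7.25%, 11.5% and 18.7%), and at 25.9% with shifted windows. Clec4f had a single window below 50% of 27, upstream of the gene (chr6:83609501-83610000), at 47.9% ± 6.06. Neither Cd5l nor Timd4 had one: their lowest windows stood at 70.1% ± 3.85 (chr3:87174001-87174500) and 54.5% ± 8.85 (chr11:46646001-46646500). The region of Cd68 had 2 of 14, at 0.378% ± 0.357 over 28 CpGs (chr11:69484501-69485000) and at 2.89% ± 0.818 over 13 CpGs (chr11:69484001-69484500), and both overlapped exons of the neighboring gene Eif4a1, which encodes a translation initiation factor. Ptprc had 2 of 112, the lower at 38.6% ± 5.56 (chr1:139985001-139985500), and Cd3e 2 of 29, the lower at 42.3% ± 8.76 (chr9:44807001-44807500). The region of Stab1 also overlaps Nisch, Nt5dc2 and Tnnc1, and the other 8 regions hold no further protein-coding gene.

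The first comparison asked where the strains differ. Between the 6 B6 and 6 C3 parents, limma on the log2 ratio of methylated to unmethylated reads called 41 of 638 member windows (6.43%) with p-values adjusted by Benjamini and Hochberg's method and a threshold of 0.05, and 4.81% of all windows were called. Of the 41 windows, 32 were lower and 9 higher in B6. By share, Cd3e came first with 10 of 29 windows (34.5%), followed by Timd4 with 7 of 39 (17.9%), Cd68 with 2 of 14 (14.3%), Lyve1 with 3 of 29 (10.3%) and Stab2 with 17 of 252 (6.75%). Marco (of 51) and Ptprc (of 112) had a single called window each, and limma called none of the 27 windows of Clec4f, 16 of Cd5l and 69 of Stab1, of which 5, 4 and 7 had an unadjusted p below 0.05. Over all windows the median difference was −0.104 on the log2 scale, with B6 lower. When each animal was centered on its own median, 40 windows were called, 14 higher and 26 lower in B6, and 35 of them were among the 41. Of the hepatocyte windows, 84 of 724 (11.6%) were called, 38 of them higher in B6.

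The largest differences lay in Stab2. At the 3′ intron whose sequence is shown above (chr10:86308001-86308500, 4 CpGs, 46 to 124 reads per animal), B6 animals had a lowest, median and highest level of 12.8%, 19.4% and 32.2%, and C3 animals of 46.1%, 57.5% and 65.9%. The strains did not overlap. The means were 21.1% ± 7.18 and 56.3% ± 7.25 (SD, n = 6 each), a log2 difference of −2.27 ± 0.23 (SE) with a limma adjusted p of 3.18e-08. The F1 means lay between those of the parents, at 46.4% ± 7.48 in B6C3F1 and 38.7% ± 9.98 in C3B6F1.

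The window next to it (chr10:86307501-86308000, 5 CpGs) had 61.7%, 66.8% and 75.0% in B6 and 89.4%, 95.1% and 96.4% in C3, again without overlap. The log2 difference was −2.89 ± 0.29 with a limma adjusted p of 2.55e-08. These 2 belonged to a run of 7 adjacent windows (chr10:86307001-86310500) that were all lower in B6, by 7.1 to 35.3 points. The strain list of single-nucleotide variants (SNVs) held 12 in the whole Stab2 region, or 0.0694 per kb against 1.14 per kb over the autosomes. None lay inside the windows of the run, and the nearest was 14 to 1514 nt away.

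A call with a difference of at least 20 points was made in 3 of the 638 member windows, beside 11253 of 2580465 windows of the genome (0.436%). Among called windows these are 3 of 41 for the members and 11253 of 124039 for the genome. The third was at an exon of Cd3e (chr9:44808501-44809000, 7 CpGs), where B6 animals had 53.2%, 63.5% and 67.6% and C3 animals 75.8%, 82.5% and 88.6%. The groups did not overlap, and the log2 difference was −1.48 ± 0.23 (limma adjusted p = 6.46e-05). Reads per CpG there were 20.5 in B6 and 13.8 in C3, and the part of depth in the difference was not tested. F1 animals averaged 73.3% (B6C3F1) and 69.7% (C3B6F1).

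Cd3e also held the largest difference in the other direction. At chr9:44807001-44807500 (6 CpGs) B6 animals had 42.4%, 49.9% and 57.5% and C3 animals 27.1%, 30.9% and 40.7%, with no overlap and a log2 difference of 1.09 ± 0.19 (limma adjusted p = 0.000307). In the intron of Timd4 that holds its lowest window, B6 animals had 52.3%, 65.7% and 74.8% and C3 animals 34.5%, 48.0% and 61.0%. The groups overlapped, the log2 difference was 0.97 ± 0.18 (limma adjusted p = 0.000519), the window holds 1 SNV, and reads per CpG were 39.1 in B6 and 20.6 in C3. The middle intron of Stab2 (chr10:86348501-86349000, 8 CpGs) was higher in B6 by 14.2 points (limma adjusted p = 0.000687). The regions of Cd3e and Timd4 held 34 and 95 SNVs, or 2.02 and 2.40 per kb, while that of Cd5l held 107 (5.57 per kb) and had no called window.

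**Figure D3:**
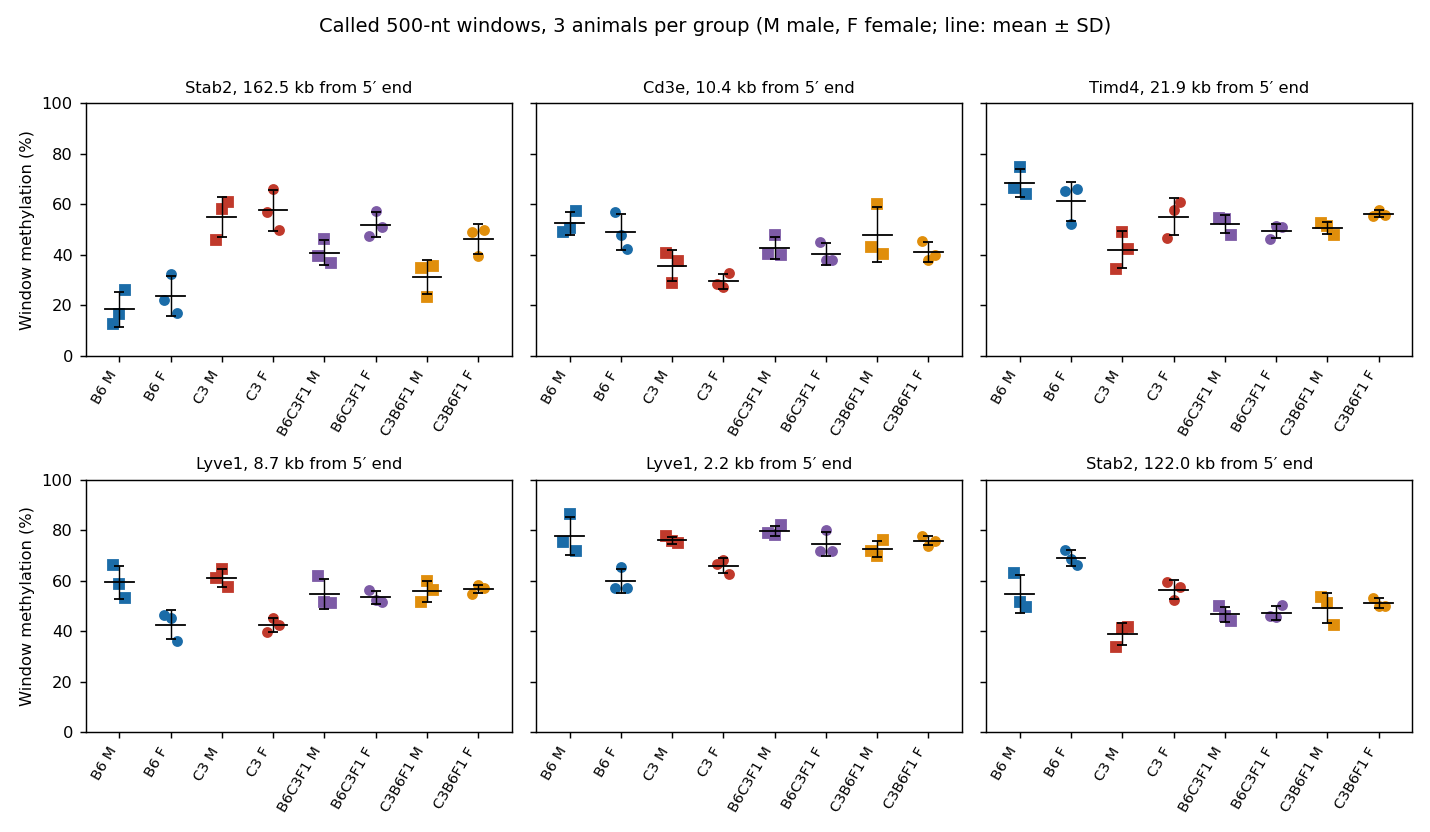
Methylation (%) of every animal in 6 windows of Stab2, Cd3e, Timd4 and Lyve1 that were called in a comparison, by group of 3 animals (squares males, circles females), with a line for the mean ± SD. At the Stab2 3′ intron all B6 animals (up to 32.2%) lie below all C3 animals (from 46.1%), and at the Lyve1 window all dams (up to 46.3%) lie below all sires (from 53.1%).

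Of the 10 promoters only that of Cd68 passed the test between the strains. B6 animals had 62.0%, 65.9% and 68.5% and C3 animals 67.0%, 72.9% and 78.9% as lowest, median and highest, which overlapped slightly. The means were 65.5% ± 2.41 and 73.5% ± 4.52, a log2 difference of −0.55 ± 0.14 with a limma adjusted p of 0.00914. Of the 5 CpGs in the Cd68 sequence shown above, 4 were lower in B6 by more than 10 points, and the one at base 157 had 3.52% in B6 and 4.84% in C3. The window that spans the Cd68 start (chr11:69479501-69480000, 7 CpGs) had 41.0%, 45.1% and 48.9% in B6 and 46.3%, 54.2% and 65.1% in C3 (log2 difference −0.64 ± 0.16, limma adjusted p = 0.0137), and without C3 male 3 or C3 female 3 its limma adjusted p was 0.0609 or 0.0577. The count of 1 of 10 promoters stands beside 12.2% of all promoters called. For Cd3e and Timd4 the promoter differences of −3.68 and −3.07 points had limma adjusted p-values of 0.0630 and 0.160.

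Over whole regions, which sum all CpGs of a gene, small differences were called more often. All 10 regions had a lower mean in B6, and 7 were called, beside 28.1% of all regions called in either direction. Of the 5927 regions called over all genes 5049 were lower in B6, and the median difference over all regions was −0.07 on the log2 scale. The largest called differences were those of Cd3e, with 77.0% in B6 (74.7% to 78.4%) and 82.4% in C3 (81.5% to 83.7%), and of Timd4, with 79.0% (77.7% to 80.1%) and 82.3% (81.0% to 83.8%), neither with overlap (limma adjusted p = 4.68e-07 and 6.51e-07). The others were Clec4f (−2.18 points), Lyve1 (−2.14), Stab1 (−1.64), Stab2 (−1.18) and Cd5l (−1.07). The limma adjusted p of Cd5l was 0.0461, and leaving out single animals ended its call in 13 of 24 cases (adjusted p up to 0.128). For Lyve1 (0.0195) the call ended without B6 male 3 or C3 male 2 (0.0612 to 0.0671). Cd68 differed by −3.10 points with a limma adjusted p of 0.0766 and was not called, nor were Ptprc (−0.49) and Marco (−0.43). After each animal was centered on its median over all genes only Cd3e and Timd4 were still called, with limma adjusted p-values of 1.54e-05 and 0.000147.

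Sires and dams were compared next. In 5 of 638 windows (0.784%) limma gave an adjusted p below 0.05, beside 0.797% of all windows, and over all windows the median difference was 0.104 on the log2 scale, with sires higher. Lyve1 held 3 of the 5, and 4 of the 5 were higher in sires. After centering, 4 were called, 2 in each direction, and 3 of them were among the 5.

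At the Lyve1 window shown above (chr7:117997501-117998000, 6 CpGs, 103 to 268 reads per animal) the B6 sires had 66.1%, 58.8% and 53.1% and the C3 sires 61.1%, 64.8% and 57.4%. The B6 dams had 46.3%, 45.3% and 36.1% and the C3 dams 39.4%, 45.1% and 42.3%. Every dam lay below every sire, in each strain. The means were 60.2% ± 4.81 in sires and 42.4% ± 3.99 in dams (n = 6 each), a log2 difference of 1.04 ± 0.16 with a limma adjusted p of 0.000233. F1 males (55.3% ± 4.61) and F1 females (55.0% ± 2.64) differed by 0.26 points. The test of whether the sex difference was the same in parents and F1 gave 17.5 points with a limma adjusted p of 0.162, and dams were lower than F1 females by 12.6 points with an adjusted p of 0.0631, so neither passed.

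The second Lyve1 window lay in an intron (chr7:118004001-118004500, 3 CpGs), with 71.6%, 75.5% and 86.2% in sires and 56.9%, 63.9% and 68.2% in dams. These did not overlap (log2 difference 0.98 ± 0.18, limma adjusted p = 0.00304), and F1 males and females averaged 76.1% and 75.1%. The third, upstream of Lyve1 (chr7:118011001-118011500), had 84.6% in sires and 76.7% in dams, overlapped and stood at the threshold (limma adjusted p = 0.0496). A window of Ptprc (chr1:140049501-140050000) stood there too, with 81.2% in sires and 74.0% in dams (limma adjusted p = 0.0497). Leaving out single animals ended the call in 18 of 24 cases for that Lyve1 window and in 22 of 24 for that of Ptprc.

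The middle intron of Stab2 went the other way. B6 sires had 63.1%, 51.5% and 49.4% and B6 dams 72.3%, 68.5% and 66.1%. C3 sires had 33.7%, 41.2% and 41.5% and C3 dams 59.5%, 52.2% and 57.6%. Dams lay above sires within each strain, whereas over both strains the ranges overlapped (sires 46.7% ± 10.3, dams 62.7% ± 7.54, log2 difference −0.95 ± 0.16, limma adjusted p = 0.000745). F1 males and F1 females stood at 47.8% ± 4.46 and 49.1% ± 2.96. Dams exceeded F1 females by 13.6 points (log2 difference 0.81 ± 0.16, limma adjusted p = 0.0232), but their ranges overlapped, with 52.2% in the lowest dam and 53.2% in the highest F1 female, and leaving out single animals ended that call in 8 of 24 cases. The difference between the sex effects in parents and F1 was −14.7 points, with a limma adjusted p of 0.322.

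This Stab2 window was the only member window called between dams and F1 females, 1 of 638, beside 0.107% of all windows. Between F1 males and F1 females the only call was an intron of Ptprc (chr1:140029001-140029500, 4 CpGs), beside 0.294% of all windows. F1 males had 84.8%, 89.6% and 91.6% and F1 females 79.7%, 82.2% and 83.2% there, without overlap (log2 difference 0.78 ± 0.18, limma adjusted p = 0.0485). Leaving out single animals ended it in 20 of 24 cases.

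In the other comparisons limma called 0 of 638 member windows. At an unadjusted p below 0.05 there were 30 member windows (4.70%, against 6.21% of all windows) between sires and F1 males and 54 (8.46% against 6.30%) between B6C3F1 and C3B6F1. For the change of the sex difference there were 43 (6.74% against 7.06%) from parents to F1 and 34 (5.33% against 5.34%) from B6 to C3. After adjustment, the shares of all windows called in these comparisons were 0.00616%, 0.000775%, 0.0242% and 0.00062%.

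No member promoter was called by limma outside the strain comparison, in 70 tests over 7 contrasts, of which 3 had an unadjusted p below 0.05. The shares of all promoters called were 0.508% for sires and dams, 0.156% for dams and F1 females, 0.0586% for sires and F1 males, 0.22% for F1 males and females, 0.0147% for the reciprocal crosses (where the median difference over all promoters was −0.148 on the log2 scale), and 0.00977% and 0.0147% for the sex difference in parents against F1 and in B6 against C3. Of the regions, those of Clec4f, Timd4 and Ptprc were higher in sires than dams by 1.84, 1.67 and 1.60 points (limma adjusted p = 0.00146, 0.00295 and 0.00697), beside 13.6% of all regions called. None of these 3 was called after centering, with limma adjusted p-values from 0.145 to 0.222. In the remaining 6 contrasts no member region was called in 60 limma tests, 9 of which had an unadjusted p below 0.05, beside 1.01% of all regions for dams and F1 females, 0.00474% for sires and F1 males, 0.588% for F1 males and females, 0.019% for the reciprocal crosses, 0.289% for the sex difference in parents against F1 and 0.00948% for that in B6 against C3.

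Levels were also set out by animal. A larger share of the cells that use these genes would lower the level at sites unmethylated in those cells alone. Whether the sites averaged here are of that kind was not tested. The mean over the 10 marker promoters ranged from 74.6% (B6 female 1) to 80.9% (C3 female 3), with a median animal at 77.6%. The mean over the 16 hepatocyte promoters ranged from 25.6% (B6 female 2) to 33.5% (B6 male 3), with a median at 28.3%. By strain or cross, the marker promoters averaged 76.6% ± 1.38 in B6 and 79.1% ± 1.33 in C3 parents (SD, n = 6 each), and the crosses had 77.9% ± 0.86 (B6C3F1) and 76.6% ± 1.33 (C3B6F1). The hepatocyte promoters averaged 29.9% ± 2.91, 26.9% ± 0.78, 28.1% ± 1.37 and 29.7% ± 2.07 in the same order. By sex, B6 males had 76.9% at marker and 32.2% at hepatocyte promoters, and B6 females 76.2% and 27.6%, so the higher hepatocyte level of B6 lay in its males. Other lists, of which the Kupffer, endothelial and leukocyte ones include the members, did not all move with the members between B6 and C3. The full endothelial list had 64.2% ± 1.21 in B6 and 63.5% ± 0.90 in C3, and the Kupffer list 75.2% ± 0.92 and 76.3% ± 0.91, both with overlap. The leukocyte list, with 82.4% ± 0.64 and 85.1% ± 0.93, did not overlap between the strains, nor did the bile duct list, with 44.2% ± 0.81 and 50.5% ± 1.41. The stellate cell list had 31.5% ± 0.78 and 33.4% ± 2.30, with overlap. The ranges of B6 (74.6% to 78.6%) and C3 (77.0% to 80.9%) overlapped for the marker promoters. Over the whole regions of the 10 genes the strains did not overlap, with 75.7% ± 0.59 in B6 (75.1% to 76.7%) and 77.8% ± 0.63 in C3 (77.2% to 78.7%), beside 76.0% and 77.0% over all autosomal CpGs. The hepatocyte regions overlapped, with 45.2% ± 1.53 and 44.4% ± 1.37.

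**Figure D4:**
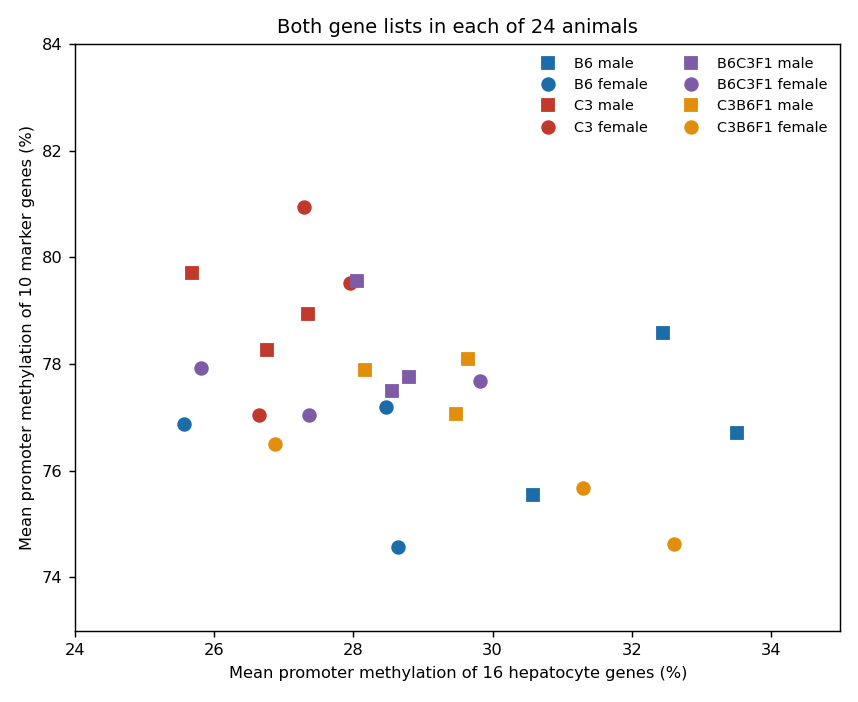
Mean promoter methylation (%) of the marker genes (vertical axis) against that of the hepatocyte genes (horizontal axis), with a point for each of 24 animals, by strain or cross and sex. Marker means lie between 74.6% and 80.9% and hepatocyte means between 25.6% and 33.5%, and the B6 and C3 ranges overlap on the marker axis.

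Between sires (78.0% ± 1.54) and dams (77.7% ± 2.23) the marker promoters differed by less than their SD, which holds both strains, and F1 males and F1 females stood at 78.0% ± 0.85 and 76.6% ± 1.25. Within C3B6F1, males had 77.1% to 78.1% and females 74.6% to 76.5%, without overlap. The sexes overlapped within B6C3F1, B6 and C3. The hepatocyte promoters had 29.4% ± 3.25 in sires, 27.4% ± 1.18 in dams, 28.8% ± 0.66 in F1 males and 29.0% ± 2.69 in F1 females. The full leukocyte list had the higher promoter mean in males of every strain and cross, with overlap in B6 alone. C3 sires had 85.4% to 86.3% and C3 dams 83.7% to 84.8%. B6C3F1 males had 85.1% to 85.4% and females 83.7% to 84.2%. C3B6F1 males had 83.8% to 84.2% and females 82.5% to 83.5%. The Kupffer list also had the higher promoter mean in males of every strain and cross, without overlap in C3B6F1 alone. The leukocyte members, Ptprc and Cd3e, averaged 79.2% in B6 sires and 79.3% in B6 dams, and 82.3% and 82.2% in C3. Their mean was higher in males of both crosses. The endothelial list had the higher promoter mean in C3 dams. Over all autosomal CpGs, males of both crosses also had the higher mean, with overlap. Over whole regions sires were higher in each strain. The 10 members averaged 76.0% in B6 sires and 75.4% in B6 dams, with overlap, and 78.3% in C3 sires and 77.3% in C3 dams, without overlap. The regions of the Kupffer list had 71.2% to 72.0% in B6 sires and 69.9% to 70.7% in B6 dams, and 72.8% to 74.0% in C3 sires and 71.5% to 71.7% in C3 dams, without overlap in either strain. In C3B6F1 they had 72.2% to 72.6% in males and 71.3% to 72.0% in females, also without overlap, and in B6C3F1 the sexes overlapped. The regions of the 10 members overlapped between the sexes in both crosses. Lists of other cells also separated in B6: the hepatocyte regions had 45.8% to 47.6% in sires and 43.5% to 44.5% in dams, the stellate cell regions 72.5% to 72.8% and 70.7% to 71.7%, and the leukocyte regions 75.0% to 76.0% and 73.7% to 74.7%. In C3 the hepatocyte (44.3% in sires, 44.6% in dams) and the stellate cell regions had the higher mean in dams, and the leukocyte ranges overlapped. The endothelial regions had the higher mean in sires of both strains, with overlap. Over all autosomal CpGs sires averaged 76.9% and dams 76.1%. Within B6 these were 76.7% in sires and 75.3% in dams, without overlap, and within C3 77.1% and 76.8%, with overlap. No test was made on these means, as the genes were chosen as a list, and the part of cell composition in the strain or sex differences of single windows was not tested. No animal was the lowest of its 6 in most of the 10 genes. B6 male 2 was the highest of its 6 in 7 of 10 regions, and B6C3F1 male 2 in 6 of 10 promoters. Each also had the highest level of its 6 over all autosomal CpGs, at 77.0% and 76.9%.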

How the data were processed

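Whole-genome bisulfite sequencing of liver DNA was analysed in 24 mice. Per the labels and the methods, the authors aligned reads with Bismark 0.7.8 and Bowtie 0.12.8 to mm9 after CASAVA 1.8.2, removed duplicates with Bismark's own tool, merged the libraries of each animal, and deposited raw counts of methylated and unmethylated reads per CpG, kept where mm9 and both strains have the dinucleotide. All 48 count columns were used. The authors also deposited SNV positions, with 2811885 on autosomes. All reads were aligned to mm9, a genome of a B6 mouse, so that C3 reads over SNVs may align less often. FOXA1 ChIP samples were not analysed here.

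Counts were summed over 500-nt windows (at least 3 CpGs and 30 reads in each animal), promoters (1000 nt upstream to 500 nt downstream of the 5′ end) and gene regions of GENCODE genes on mm9, autosomes only, with coordinates counted from 1. Totals lay between 365740739 and 619888157 reads per animal. Percent methylation is a share of deposited counts, so depth sets its precision. The test was limma 3.58.1 (R 4.3.3, trended variance) on log2((methylated + 1)/(unmethylated + 1)), since a count model of expression is not made for paired methylated and unmethylated reads. It fitted a mean for each of the 8 groups defined by sex and genotype to all 24 animals, with Benjamini-Hochberg adjustment over all 2580465 windows, 20462 promoters or 21087 regions. Differences in points are the first minus the second group. Members and lists were chosen with earlier results of these data known. All 10 members were named. Of each comparison's called windows, up to 3 per direction with the largest difference were named, and of other lists the lowest, the highest and the 2 nearest the median promoter. The Cd68 start and the threshold windows were chosen after their values were seen.

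Data were simulated for B6 against C3 parents (2580465 windows), with a single fixed spread between animals set for every window. How that spread compares with the real one was not tested. In the simulated data limma found 0.5% of 200 windows shifted by 10 points, 84% of 200 shifted by 20 points, and 6 false ones. Only these windows, all of intermediate methylation, were changed. The adjusted threshold was therefore stricter than in the real comparison, where 124039 windows were called. Alternatives were other minimums of CpGs and reads, a pseudocount of 5, the arcsine scale, robust variances, centering, a replicate block, minimum differences, shifted windows, another promoter size and leaving out each animal. Each replicate is 1 animal, and counting error is part of the spread between animals.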

Additional observations from a re-analysis of the deposited data

Results flagged for a closer look

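The values here were picked out because the lowest or the highest of 6 animals of a strain or cross stood apart from its neighbor by more than 0.625 of the range of the 6 (Dixon's 95% limit). Of 260 such groups of member promoters, regions and called windows, 16 (6.15%) met this, and chance gives about 1 in 20. No explanation was tested for any of them.

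For promoters, Marco stood at 69.9% in B6 female 3 (nearest animal 74.2%), Cd68 at 58.1% in C3B6F1 female 3 (67.8%) and Ptprc at 80.8% in C3B6F1 male 3 (73.6%). For regions, Stab2 stood at 82.3% in C3 male 1 (83.1%) and Cd3e at 76.9% in C3B6F1 female 3 (79.1%). C3B6F1 female 3 thus appeared for both Cd68 and Cd3e. Its mean was 74.6% over the marker promoters and 32.6% over the hepatocyte promoters, where B6 male 3 had 33.5%. Over the hepatocyte regions its mean, 47.8%, was the highest of the 24 animals. Among the members it was the lowest of its 6 in 4 promoters and 4 regions, and the highest in 2 promoters and 3 regions.

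In Stab2 windows the value was 89.4% at chr10:86307501 (C3 female 3, nearest 94.6%), 87.3% at chr10:86310001 (C3 female 3, nearest 74.2%), 75.8% at chr10:86412501 (B6 male 1, nearest 82.5%), 36.3% at chr10:86325001 (B6 male 1, nearest 23.1%), 54.5% at chr10:86343501 (C3 male 2, nearest 44.3%), 53.9% at chr10:86442501 (B6C3F1 female 3, nearest 42.2%) and 42.2% at chr10:86348501 (C3B6F1 male 3, nearest 49.8%). In Cd3e windows it was 73.1% at chr9:44815001 (B6 male 3, nearest 77.3%), 75.1% at chr9:44806001 (B6C3F1 female 1, nearest 78.9%) and 60.3% at chr9:44807001 (C3B6F1 male 2, nearest 45.4%). In Timd4 it was 81.4% at chr11:46651001 (B6 female 3, nearest 74.5%).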

How the results depend on the processing

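No result changed direction under any alternative run. Of the 41 windows called between B6 and C3 parents, 28 were called under every alternative in which the same window could be tested (minimum differences and shifted windows aside), and of the 5 between sires and dams 3 were. The strain count was 25 with at least 100 reads, where fewer windows could be tested, 18 at 10 points, 3 at 20 points and 35 to 44 without single animals. The sires against dams count was 3 with at least 1 CpG, 3 at 10 points, 0 at 20 points and 3 to 5 without single animals. For dams against F1 females (1 window) it was 3 with at least 5 CpGs, 3 with 100 reads, 4 with a pseudocount of 5, 3 on the arcsine scale, 2 in shifted windows, 0 at 20 points and 0 to 3 without single animals. The call between F1 males and females was lost (0) with at least 1 CpG, a pseudocount of 5, the arcsine scale, centering and shifted windows, and the count was 0 to 1 without single animals. It was also 0 with at least 5 CpGs and at 10 and 20 points, by construction, since that window holds 4 CpGs and differed by 6.9 points. The sex difference in parents against F1 gave 1 call with 100 reads. Of 10 region calls 2 were kept after centering, and there were 8 to 12 without single animals. Promoter calls were 1 to 3, with 3 without C3 female 1. Minimum differences lower a count by construction, and the causes of the other changes were not tested.

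Per the paper, the animals were chosen as families of sire, dam, son and daughter, and the main fit holds no family term. Correlations of same-numbered animals over 84 pairs lay between -0.00855 and 0.0620. Pairs with different numbers were not set beside them, so whether replicate numbers mark families cannot be told from these values. With the replicate block there were 42 calls between strains, 4 between sires and dams, 2 between dams and F1 females, 1 between F1 males and females, 0 in the other window comparisons, 1 promoter and 10 regions. The difference of 52.9 points between list medians was 56.2 with promoters of 500 nt on either side (9 members, as Cd5l had too few CpGs) and 52.4 as a mean over single CpGs, and 52.7 to 53.4 without single animals. Of the 10 lowest windows 8 lay below 50%, 7 with at least 5 CpGs and 8 in shifted windows. Shifting the windows moved the lowest level from 12.1% to 25.9% in Marco, from 3.51% to 11.3% in Stab1, from 10.7% to 19.1% in Lyve1, from 7.05% to 2.37% in Stab2 and from 0.378% to 1.07% in Cd68, and by less than 1.5 times in the other 5 genes. Windows shifted by 10 points in simulated counts were found in 0.5% of cases. The simulation had the depth and number of animals of these data and a single fixed spread between animals. Far fewer windows were changed there than were called between the real strains, so this share is not the sensitivity of the real comparison. Depth was not varied.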
